A study of Homo sapiens with 6 samples.

Results

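The monocarboxylate transporter genes examined here are 7 members of the SLC16 family (SLC16A1, SLC16A3, SLC16A6, SLC16A7, SLC16A9, SLC16A13 and SLC16A14) together with BSG, which encodes basigin, the chaperone of the main lactate carriers. They were taken by name from a table of 20263 genes, and all 8 were found there by matching Ensembl gene identifiers to symbols. SLC16A6 was chosen by its CSE against WT difference in TPM, one of the largest rises in these data, and the others as its family and chaperone with the same contrast known. The values of these 8 genes are therefore given as a description, without a test of their own. The study profiled poly(A) RNA of HCT116, an established human colorectal cancer line of epithelial origin, in 3 libraries treated with CSE and 3 wild type (WT) libraries. CSE is not spelled out in the labels and is read here as cigarette smoke extract, since the series title is about smoking. The WT libraries carry no other label of treatment, and the sources used here give no solvent control, dose or exposure time. Nothing in the labels says whether the 3 libraries of a group are separate cultures, so errors and p-values measure the spread between these libraries, which may be technical. Between 12640 and 12740 genes reached 1 TPM in the CSE libraries and 12741 to 12778 in the WT libraries, and sequencing depth is unknown.

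Monocarboxylates are small organic acids such as lactate, pyruvate and the ketone bodies. Carriers of the SLC16 family move them, or other solutes, across the plasma membrane, and the classical lactate carriers carry a proton along with each anion. Cancer cells that run glycolysis at a high rate release lactate through these carriers. Basigin, a membrane glycoprotein of the immunoglobulin superfamily, brings MCT1 and MCT4 to the cell surface. The family is not uniform: several members are known for other substrates or have none that is firmly established.

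The 7 carriers share a short conserved signature at the start of the first membrane-spanning segment. The stretches of coding sequence that hold it are shown to let the transcripts behind the values be told apart. Each is 60 bases long, read 5′ to 3′ on the coding strand from GENCODE 29 transcripts (GRCh38), and the 18 bases in capitals encode the signature.
SLC16A6: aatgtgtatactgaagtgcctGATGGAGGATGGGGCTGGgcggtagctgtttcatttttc
SLC16A1: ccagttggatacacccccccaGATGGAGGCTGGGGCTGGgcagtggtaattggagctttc
SLC16A3: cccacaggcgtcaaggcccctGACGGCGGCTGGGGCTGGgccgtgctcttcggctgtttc
SLC16A7: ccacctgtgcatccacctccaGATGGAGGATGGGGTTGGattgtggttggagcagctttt
SLC16A9: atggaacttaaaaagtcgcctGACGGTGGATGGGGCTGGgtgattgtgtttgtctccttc
SLC16A13: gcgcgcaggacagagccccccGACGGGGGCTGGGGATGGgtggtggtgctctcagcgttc
SLC16A14: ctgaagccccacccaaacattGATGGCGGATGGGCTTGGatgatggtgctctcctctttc

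The SLC16A6 stretch lies in a coding exon at chr17:68278225-68278284 on the minus strand, that of SLC16A1 at chr1:112929228-112929287 on the minus strand, and that of SLC16A3 at chr17:82236036-82236095 on the plus strand. Within the capitals SLC16A6 is identical to SLC16A1 at 17 of 18 bases, to SLC16A7 at 17 and to SLC16A3 at 15. Over the whole 60 bases it matches them at only 33, 31 and 30 positions, while SLC16A1 and SLC16A7 match each other at 40. No pair of the 8 genes shares a long run in its coding sequence. The longest identical run over all 28 pairs is 16 bases, between SLC16A1 and SLC16A7. The coding sequences are thus distinct over stretches far shorter than a typical sequencing read.

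**Figure D1:**
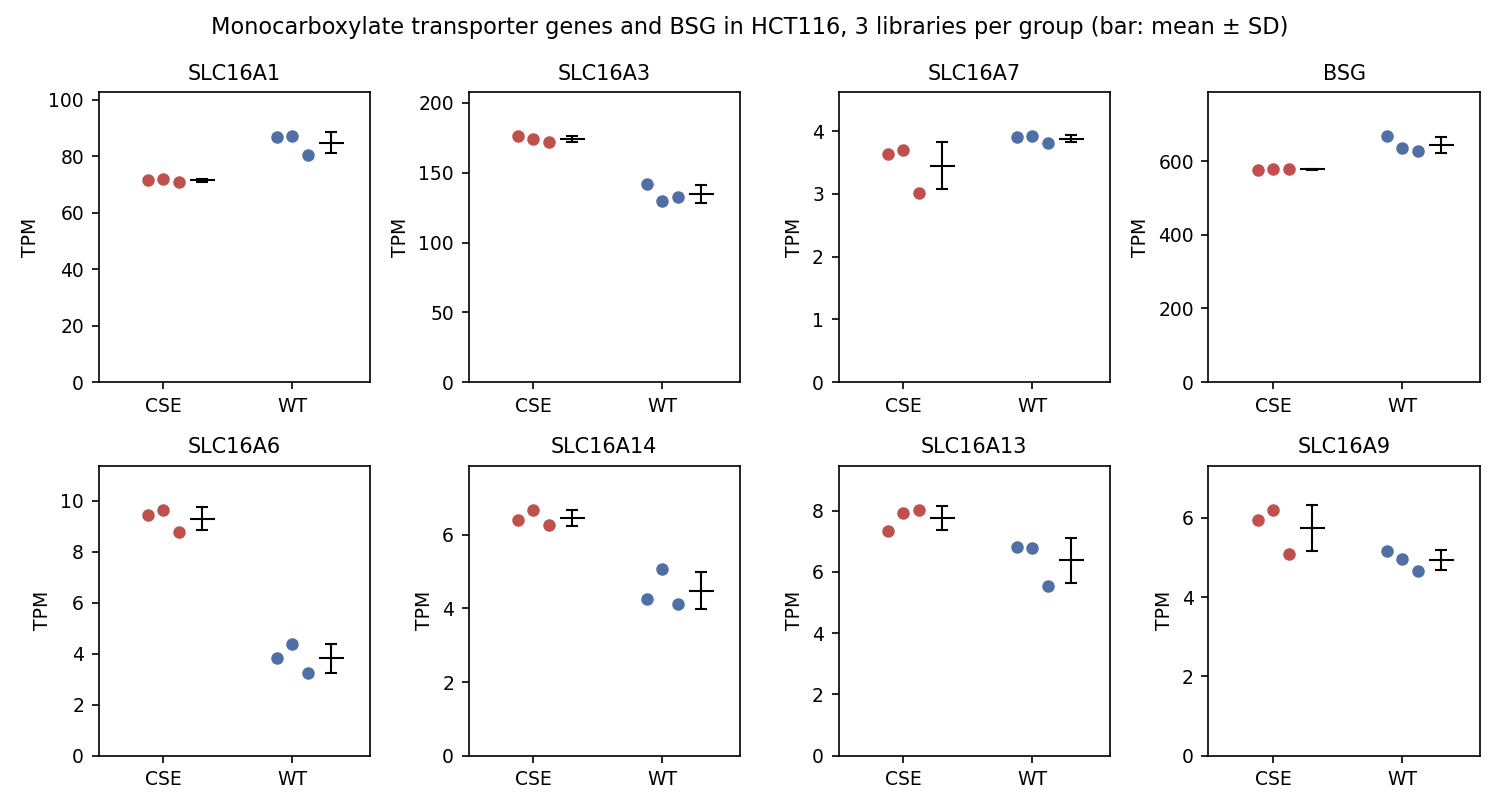
TPM of the 8 genes in each library (points), with the mean and SD of each group of 3 (bar to the right of the points). SLC16A6 lies at 8.78 to 9.64 TPM in CSE and 3.23 to 4.37 TPM in WT, SLC16A3 is higher in CSE, and SLC16A1 and BSG are lower in CSE.

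SLC16A6 had the widest difference of the 8 genes. It encodes MCT7, a carrier known in zebrafish for the export of ketone bodies from the liver and reported in mammals to carry taurine. The gene lies on chromosome 17 (ENSG00000108932, 68267026 to 68291267, minus strand). Its levels were 9.45, 9.64 and 8.78 TPM in CSE, against 3.83, 4.37 and 3.23 TPM in WT. Every CSE library stood well above every WT library. The mean was 9.29 ± 0.452 TPM in CSE and 3.81 ± 0.570 TPM in WT (SD, n = 3 each), a ratio of 2.44. On the log2(TPM + 1) scale, which understates differences of low genes, the CSE minus WT difference was 1.10 (SE 0.0819, 95% interval 0.93 to 1.27). That is the 8th highest of the 12793 genes tested. In bulk RNA, a smaller number of cells with a transcript and less of it per cell cannot be told apart, here and for every gene below.

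The principal lactate carriers differed in opposite directions. SLC16A3 encodes MCT4, the carrier best known for lactate export from glycolytic cells and a known target of hypoxia-inducible factor (ENSG00000141526, chromosome 17, 82228397 to 82261129, plus strand). It was at 176.11, 174.41 and 171.83 TPM in CSE, against 142.11, 130.03 and 132.57 TPM in WT. All 3 CSE libraries exceeded all 3 WT libraries. The means were 174 ± 2.16 TPM in CSE and 135 ± 6.37 TPM in WT (SD, n = 3 each), a ratio of 1.29 and a log2 difference of 0.37 (SE 0.0406, 95% interval 0.28 to 0.45). SLC16A1 encodes MCT1, a widely expressed carrier that takes up or releases lactate, pyruvate and ketone bodies and is a known target of MYC (ENSG00000155380, chromosome 1, 112911847 to 112957013, minus strand). Its levels were 71.60, 71.87 and 70.93 TPM in CSE, against 86.69, 87.01 and 80.48 TPM in WT. Here the CSE libraries were close together and all below WT. The means were 71.5 ± 0.484 TPM in CSE and 84.7 ± 3.68 TPM in WT, a ratio of 0.843 and a log2 difference of -0.24 (SE 0.0427, 95% interval -0.33 to -0.15).

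SLC16A7 encodes MCT2, a carrier with high affinity for pyruvate and lactate, and was a minor transcript in these cells (ENSG00000118596, chromosome 12). It was at 3.63, 3.70 and 3.02 TPM in CSE, against 3.91, 3.92 and 3.82 TPM in WT. The groups did not overlap, but the log2 difference of -0.14 (SE 0.0831) had a 95% interval that included 0, -0.31 to 0.035. CSE replicate 3 was the lowest of the 6 libraries, and without it the log2 difference was -0.066.

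BSG was by far the most abundant of the 8 (ENSG00000172270, chromosome 19, 571277 to 583493, plus strand). Its levels were 576.05, 577.92 and 577.97 TPM in CSE, against 667.49, 635.28 and 628.46 TPM in WT. All CSE libraries lay below all WT libraries, so the difference of the chaperone had the sign of that of SLC16A1 and not of SLC16A3. The means were 577 ± 1.09 TPM in CSE and 644 ± 20.8 TPM in WT, a ratio of 0.897 and a log2 difference of -0.16 (SE 0.0365, 95% interval -0.23 to -0.081). The size depended on the scaling and was -0.28 under quantile normalization.

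The remaining carriers were all higher in CSE by their means, at low levels. SLC16A14 encodes MCT14, whose substrates are not well established (ENSG00000163053, chromosome 2). It was at 6.41, 6.68 and 6.27 TPM in CSE, against 4.26, 5.07 and 4.13 TPM in WT, with a log2 difference of 0.45 (SE 0.0777, 95% interval 0.28 to 0.61). The groups did not overlap, and next to SLC16A6 this was the widest difference of the 8 genes. SLC16A13 encodes MCT13, a carrier linked in genetic studies to type 2 diabetes (ENSG00000174327, chromosome 17, 7036075 to 7040121). It was at 7.33, 7.93 and 8.03 TPM in CSE, against 6.82, 6.77 and 5.53 TPM in WT, a log2 difference of 0.25 (SE 0.0765). The groups were separate, although WT replicate 3 was low, and without it the difference was 0.17. SLC16A9 encodes MCT9, a carrier linked to carnitine and creatine (ENSG00000165449, chromosome 10). It was at 5.93, 6.20 and 5.09 TPM in CSE, against 5.16, 4.97 and 4.65 TPM in WT, a log2 difference of 0.18 (SE 0.0784). Here the groups overlapped, since CSE replicate 3 lay below WT replicate 1.

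**Figure D2:**
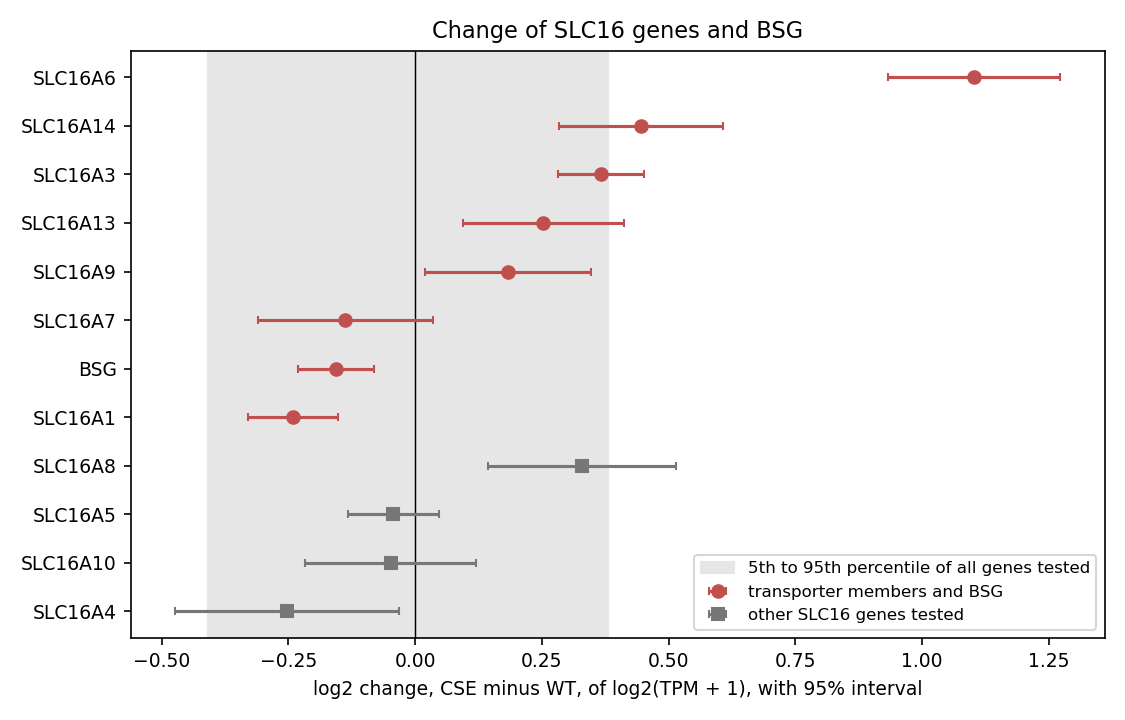
CSE minus WT difference of log2(TPM + 1) with its 95% interval for the 8 genes (circles) and the other SLC16 genes that passed the filter (squares), beside the range from the 5th to the 95th percentile of all genes tested (band, -0.41 to 0.38). SLC16A6 lies far to the right of the band and SLC16A14 just past its edge.

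All 8 genes passed the filter of at least 1 TPM in at least 3 libraries. Beside the background of 12793 genes, the counts were as follows. With limma at a Benjamini-Hochberg adjusted p under 0.05, 6 of the 8 were called, 4 higher in CSE (SLC16A3, SLC16A6, SLC16A13 and SLC16A14) and 2 lower (SLC16A1 and BSG). Over all genes tested 50.1% were called, 24.5% higher and 25.6% lower. The groups did not overlap for 7 of the 8, against 57.4% of all genes tested. The call of SLC16A13 was lost without the filter and without WT replicate 3, and SLC16A9 was called in 6 of 15 alternatives. Since the genes were chosen with this contrast known, nothing is read from these counts. The median log2 difference of the 8 was 0.22, against -0.0039 over all genes tested. In the order of all differences, 94.6% of genes lay below SLC16A3, 96.9% below SLC16A14, 14.5% below SLC16A1 and 24.3% below BSG. Leaving out any 1 of the 6, the log2 difference of SLC16A6 lay between 1.01 and 1.19, that of SLC16A3 between 0.34 and 0.40, and that of SLC16A1 between -0.28 and -0.22.

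The order of the levels among the 7 carriers was the same at the top in both groups and changed at the bottom. This order and the shares below leave out the other SLC16 genes, of which SLC16A5 lay above SLC16A1 in every library. TPM is corrected for length, so levels of different genes were set side by side. The counting program and the authors' annotation are unknown here, so the order of genes with close levels is approximate. SLC16A3 was first and SLC16A1 second in every library, and the other 5 carriers together reached 31.19 to 34.15 TPM in CSE and 21.36 to 25.10 TPM in WT. Among these 5, SLC16A6 was the highest in CSE, where its lowest library (8.78 TPM) exceeded the highest of SLC16A13 (8.03 TPM). SLC16A13, SLC16A14, SLC16A9 and SLC16A7 followed in CSE, with neighbours that did not overlap. In WT the order was SLC16A13, SLC16A9, SLC16A14, SLC16A7 and SLC16A6. There SLC16A9 and SLC16A14 overlapped, as did SLC16A7 and SLC16A6, so neither pair differed beyond its spread. The WT values of SLC16A6 and SLC16A14 also overlapped, though SLC16A14 was the higher within each WT library. SLC16A6 made up 3.34 ± 0.120% of the summed TPM of the 7 carriers in CSE and 1.57 ± 0.218% in WT (SD, n = 3 each).

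A ratio of TPM values within a library does not depend on how that library was scaled. SLC16A3 transcripts per SLC16A1 transcript came to 2.46, 2.43 and 2.42 in CSE, against 1.64, 1.49 and 1.65 in WT. All CSE libraries were above all WT libraries, and the mean ratios of 2.44 ± 0.0203 and 1.59 ± 0.0860 differed 1.53-fold. SLC16A6 per SLC16A1 was 0.130 ± 0.00546 in CSE and 0.0448 ± 0.00508 in WT, 2.90-fold apart. SLC16A6 per SLC16A3 was 0.0533 ± 0.00211 in CSE and 0.0283 ± 0.00477 in WT, 1.88-fold apart. The ratio to SLC16A3 differed less than the ratio to SLC16A1, and both were higher in every CSE library. SLC16A6 and SLC16A7 stood at near equal levels in WT, with a ratio of 0.980 ± 0.135, and at 2.71 ± 0.175 in CSE. Against BSG the SLC16A6 ratio differed 2.72-fold.

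The difference of SLC16A6 minus the mean difference of SLC16A1, SLC16A3, SLC16A7 and BSG was 1.14 on the log2(TPM + 1) scale. Per library, SLC16A6 lay below the mean of those 4 genes by a log2 value of -2.87, -2.85 and -2.91 in CSE, against -4.05, -3.85 and -4.16 in WT. With a pseudocount of 0.1 the difference was 1.32. BSG transcripts per summed SLC16A1 and SLC16A3 transcript were 2.33, 2.35 and 2.38 in CSE, against 2.92, 2.93 and 2.95 in WT. The groups were far apart relative to their spread, as SLC16A1 plus SLC16A3 summed to 246 ± 2.55 TPM in CSE and 219.6 ± 8.19 TPM in WT while BSG was lower in CSE.

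**Figure D3:**
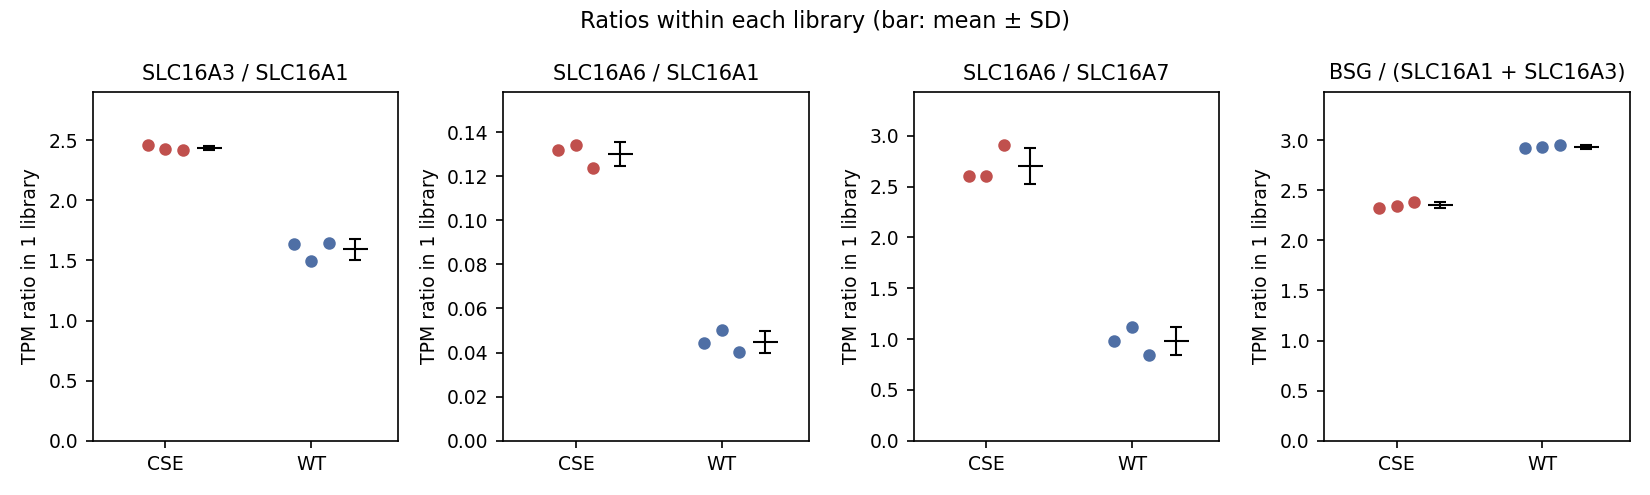
Ratios of TPM values within each library (points), with the mean and SD of each group of 3. SLC16A3 per SLC16A1 and both SLC16A6 ratios are higher in every CSE library, and BSG per summed SLC16A1 and SLC16A3 is lower in every CSE library.

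SLC16A6 lies wholly inside the gene of the sulfatase ARSG, on the opposite strand. In the annotation, 144 of its 4061 exonic bases (3.55%) are also exonic in ARSG. ARSG was at 10.6 TPM in CSE and 8.97 TPM in WT, a rise with a log2 difference of 0.22 (SE 0.0631, limma adjusted p = 0.00677). SLC16A3 shares 482 of its 8995 exonic bases (5.36%) with CSNK1D, a casein kinase gene on the opposite strand. CSNK1D was at 98.4 TPM in CSE and 93.9 TPM in WT (log2 difference 0.067, SE 0.0409, limma adjusted p = 0.180). The sources used here do not say whether reads were counted by strand, so reads of the shared bases cannot be assigned to 1 gene.

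The 7 other SLC16 genes were all in the table, and 4 passed the filter. SLC16A5, which encodes a carrier of the diuretic bumetanide and other drugs, lay below SLC16A3 and above SLC16A1 in all 6 libraries, at 96.2 ± 4.38 TPM in CSE and 99.2 ± 3.31 TPM in WT (log2 difference -0.043, SE 0.0435, limma adjusted p = 0.428). SLC16A8, which encodes the retinal lactate carrier MCT3, rose to 6.16 ± 0.725 TPM in CSE, against 4.71 ± 0.630 TPM in WT (log2 difference 0.33, SE 0.0890, limma adjusted p = 0.00403). The aromatic amino acid carrier SLC16A10 was at 3.04 TPM in CSE and 3.18 TPM in WT (limma adjusted p = 0.645). SLC16A4, whose substrates are not well established, was at 1.06 TPM in CSE and 1.45 TPM in WT (log2 difference -0.25, limma adjusted p = 0.0526). Of those that did not pass, SLC16A11 was listed at no more than 0.42 TPM in any library and the creatine carrier SLC16A12 at no more than 0.18 TPM. Of the sodium-coupled lactate carriers, SLC5A8 reached at most 0.05 TPM and SLC5A12 was listed at 0 in all 6 libraries.

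Chaperones and partners of basigin moved in both directions. Of 9 genes tested, 4 rose and 4 fell, with a median log2 difference of 0.032. Over all genes tested 24.5% were called higher and 25.6% lower, the background for the counts of this list and those below. These lists were chosen with earlier results of these data known, so their counts are a description and not a test of a pathway. EMB, which encodes embigin, the chaperone of MCT2, fell to 7.15 ± 0.610 TPM in CSE, against 9.25 ± 0.695 TPM in WT (log2 difference -0.33, SE 0.0724, limma adjusted p = 0.000657). NPTN, which encodes the related glycoprotein neuroplastin, fell to 66.6 TPM in CSE, against 82.4 TPM in WT (log2 difference -0.30, limma adjusted p = 4.49e-06). All 3 genes of this glycoprotein family, BSG, EMB and NPTN, were therefore lower in CSE. PPIA, which encodes the cyclophilin that binds basigin, rose to 746 ± 34.7 TPM in CSE, against 609.8 ± 16.9 TPM in WT (log2 difference 0.29, limma adjusted p = 3.20e-06).

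Enzymes that make or use lactate and pyruvate were more often called higher than lower. Of 21 tested, 15 rose, 1 fell and 5 did not pass, with a median log2 difference of 0.15, while over all genes tested 24.5% were called higher and 25.6% lower. The count called higher was 10 without the variance trend and without WT replicate 2, WT replicate 3 or CSE replicate 2. LDHB, the lactate dehydrogenase subunit that favours lactate oxidation, rose to 1131 ± 53.6 TPM in CSE, against 849 ± 12.5 TPM in WT (log2 difference 0.41, SE 0.0389, limma adjusted p = 1.69e-08). PKM, which encodes the pyruvate kinase at the end of glycolysis, rose to 1141 TPM in CSE, against 932 TPM in WT (0.29, limma adjusted p = 6e-07). PDK2, a kinase that inhibits pyruvate dehydrogenase, rose to 22.6 TPM in CSE, against 18.1 TPM in WT (0.31, limma adjusted p = 0.000249). PDP2, a phosphatase that reactivates it, fell to 15.0 TPM in CSE, against 21.1 TPM in WT (log2 difference -0.47, limma adjusted p = 4.31e-07). The far more abundant phosphatase gene PDP1 was not called, at 591 TPM in CSE and 605 TPM in WT (log2 difference -0.033, limma adjusted p = 0.495). The genes PDHA1, PDHB, PDHX, DLAT and DLD of the dehydrogenase complex were called higher, and of these DLAT and DLD kept the call in every alternative. LDHA, the subunit that favours lactate production, is added here after its values were seen. It was at 621 TPM in CSE and 572 TPM in WT (0.12, limma adjusted p = 0.00867), a call lost without the variance trend, with mitochondrially encoded genes left out or by quantile scaling. LDHA per LDHB was 0.550 ± 0.0286 in CSE and 0.674 ± 0.0147 in WT.

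The share of the library held by mitochondrially encoded genes moved with the groups, at 25.5% to 25.8% in CSE and 27.0% to 30.2% in WT. After rescaling the libraries without those genes, 5 of the lactate and pyruvate genes were called higher and 3 lower. The same rescaling gave SLC16A3 a log2 difference of 0.31, SLC16A1 -0.30, BSG -0.21 and SLC16A6 1.10, all in the same direction as before. It moved the median of all genes to -0.058, and 34.3% of calls were then higher in CSE, against 48.9% with TPM as deposited.

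Of 8 tested genes in the list of ketone body enzymes, 7 rose and 0 fell, with a median log2 difference of 0.27. ACAT2, a cytosolic thiolase, rose to 20.5 TPM in CSE, against 15.9 TPM in WT (0.35, limma adjusted p = 2.03e-05), and the acetyl-CoA synthetase gene ACSS2 rose to 63.1 TPM in CSE, against 50.2 TPM in WT (0.33, limma adjusted p = 1.70e-06). Both serve sterol and lipid synthesis, and ACSS2 acts on acetate and not on a ketone body. With mitochondrially encoded genes left out, 6 genes of the list were higher and 1 lower.

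Among 9 genes of proton and bicarbonate handling, 2 rose, 2 fell and 5 did not pass (median log2 difference -0.083). With mitochondrially encoded genes left out 2 were higher and 4 lower. The genes that fell were carbonic anhydrases, which interconvert carbon dioxide and bicarbonate. CA2, the cytosolic enzyme, fell to 57.6 ± 1.62 TPM in CSE, against 86.0 ± 4.18 TPM in WT (log2 difference -0.57, SE 0.0449, limma adjusted p = 1.17e-09). CA12, an enzyme of the cell surface, fell to 2.64 TPM in CSE, against 4.54 TPM in WT (log2 difference -0.61, limma adjusted p = 3.59e-06).

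Of 10 tested genes for factors known to act on carrier or fuel genes, 4 rose and 4 fell (median log2 difference 0.030). MYC, which activates SLC16A1 in other cells, fell to 332 ± 19.6 TPM in CSE, against 466 ± 13.6 TPM in WT (log2 difference -0.49, SE 0.0422, limma adjusted p = 4.31e-09). PPARA, a lipid-sensing nuclear receptor, fell to 8.69 TPM in CSE, against 14.2 TPM in WT (log2 difference -0.66, limma adjusted p = 4.25e-07). HIF1A, a hypoxia-inducible factor gene, is added after its values were seen and rose to 139 TPM in CSE, against 116 TPM in WT (0.26, limma adjusted p = 4.78e-05). EPAS1, another hypoxia-inducible factor gene and likewise added, fell to 70.2 TPM in CSE, against 82.1 TPM in WT (log2 difference -0.23, limma adjusted p = 0.000543). Their partner gene ARNT was not called (0.097, limma adjusted p = 0.162). These are mRNA levels and say nothing of the activity of the factors, and whether they bear on the carriers was not tested.

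In the list for taurine, carnitine and creatine, solutes linked to individual SLC16 members, 5 of 13 tested genes rose and 4 fell (median log2 difference 0.062). With mitochondrially encoded genes left out 3 were higher and 6 lower, and without WT replicate 1 the count of lower genes was 2. GATM, the first enzyme of creatine synthesis, rose to 3.16 TPM in CSE, against 1.65 TPM in WT (0.65, limma adjusted p = 2.97e-06). CPT2, a mitochondrial enzyme of carnitine-dependent fatty acid import, rose to 22.2 TPM in CSE, against 16.7 TPM in WT (0.39, limma adjusted p = 3.55e-06). CKB, a creatine kinase gene, rose to 631 TPM in CSE, against 578 TPM in WT (0.13, limma adjusted p = 0.009), a call lost in 4 of 15 alternatives: mitochondrially encoded genes left out, quantile scaling, no variance trend, and WT replicate 2 left out. The taurine importer gene SLC6A6, added after its values were seen, was at 91.2 ± 8.51 TPM in CSE and 97.0 ± 3.10 TPM in WT (log2 difference -0.091, limma adjusted p = 0.155). Of 5 other carriers of taurine, thyroid hormone or aromatic amino acids, 2 rose and 2 fell. Of the rises, that of SLC43A1 (log2 difference 0.14, limma adjusted p = 0.0495) lost its call in 7 of 15 alternatives. SLC43A2 rose (log2 difference 0.33, limma adjusted p = 0.000335), while SLC36A1 (log2 difference -0.30, limma adjusted p = 0.000289) and SLCO4A1 (log2 difference -0.25, limma adjusted p = 0.000343) fell.

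**Figure D4:**
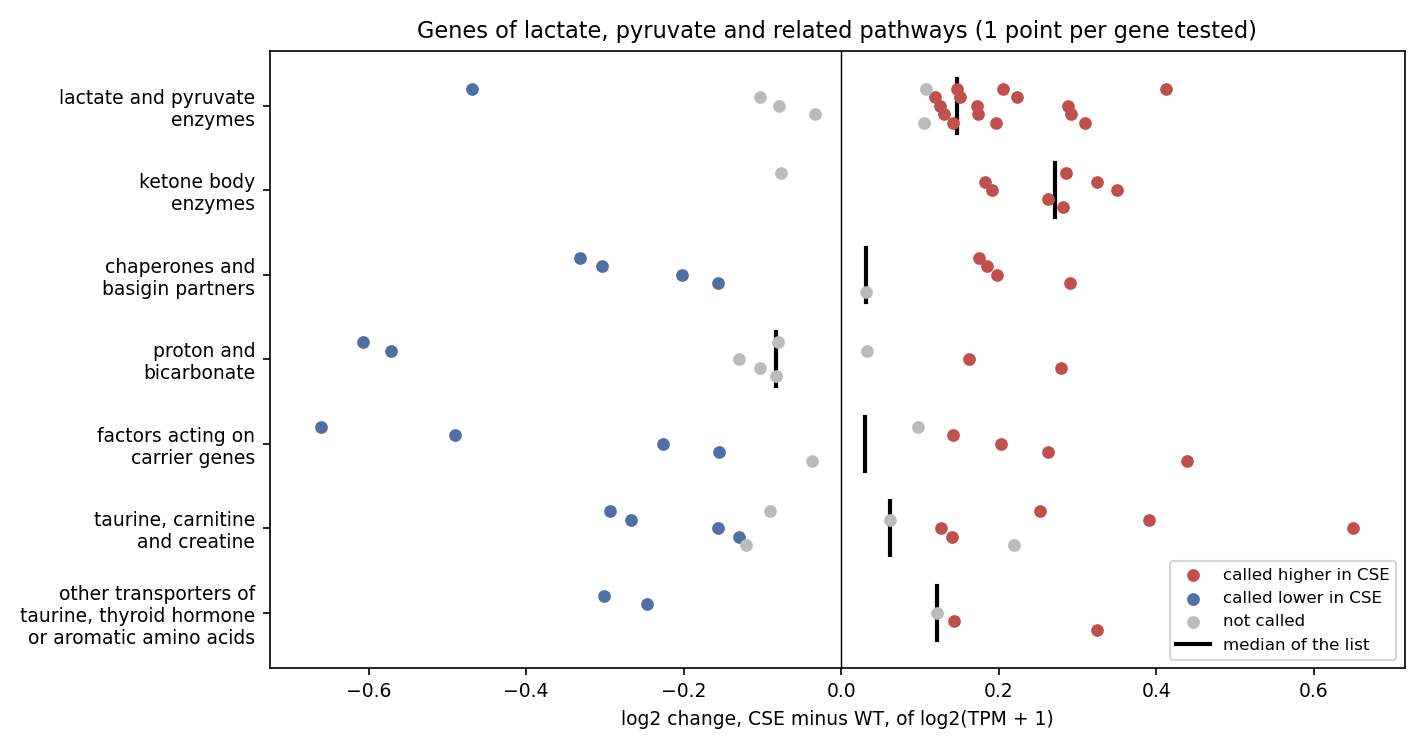
CSE minus WT difference of log2(TPM + 1) for each tested gene of 7 lists (points), with calls by limma at an adjusted p under 0.05 in colour and the list median as a bar. Genes of the lactate and pyruvate list (15 of 21 higher) and of the ketone body list, ACSS2 included (7 of 8 higher), lie mostly to the right of 0. Over all genes tested 24.5% were called higher. The lists were chosen with earlier results of these data known, so the counts are a description.

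Over all these lists, the other SLC16 genes included, 40 of 79 tested genes were called higher, 17 lower and 22 were not called. The shares over all genes tested were 24.5% higher and 25.6% lower. With mitochondrially encoded genes left out the counts were 26 higher and 26 lower.

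The genes with the profile nearest to SLC16A6 over the 6 libraries were METTL7A, HMMR, TNS2 and ABCG2. Nearness was the root mean square difference of log2(TPM + 1) after each gene's WT mean was subtracted, over 12793 genes, with the 8 genes themselves left out. The nearest, METTL7A, a methyltransferase gene, was at 4.42, 4.34 and 4.11 TPM in CSE, against 1.72, 1.70 and 1.34 TPM in WT (difference 0.0721, r = 0.996 over 6 libraries). ABCG2, a drug efflux pump gene, was at 7.52, 8.07 and 7.44 TPM in CSE, against 2.83, 3.43 and 3.18 TPM in WT (difference 0.104, r = 0.984). The spindle gene HMMR and the adhesion gene TNS2 had differences of 0.0765 and 0.0873. Nearest to SLC16A1 were TMEM41B, KLF6, PRRG4 and TRIM27, with differences of 0.0151 to 0.0172. Nearest to SLC16A3 were POGLUT1, PDGFB, TBCD and IDH2, with differences of 0.00806 to 0.0188. The libraries form 2 groups, so this measure mainly finds genes with an equal difference between the groups.

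The labelled cell type was checked by its markers. EPCAM, CDH1, KRT8, KRT18, KRT19 and CDX2 of the 10 epithelial markers passed the filter, while CDX1 was listed at 0 and LGALS4, VIL1 and CDH17 stayed under 0.4 TPM. The summed level of the 10 was 5307 to 5613 TPM in CSE and 5082 to 5315 TPM in WT, but single markers differed in both directions. KRT19 (log2 difference 0.34, limma adjusted p = 5.87e-07), EPCAM (0.12, limma adjusted p = 0.0144) and CDX2 (0.18, limma adjusted p = 0.0284) rose. KRT18 fell (log2 difference -0.25, limma adjusted p = 8.43e-06), and CDH1 and KRT8 were not called. Of 6 fibroblast markers only COL1A1 passed (summed level 38.0 to 38.7 TPM in CSE, 43.9 to 46.0 TPM in WT), with DCN at 0 in every library. Of 6 immune markers only CD68 passed (summed level 12.5 to 13.4 TPM in CSE, 18.8 to 19.2 TPM in WT), with PTPRC at no more than 0.03 TPM. None of 4 endothelial markers passed (1.31 to 1.53 TPM in CSE, 0.75 to 1.22 TPM in WT). COL1A1 (log2 difference -0.23, limma adjusted p = 0.00025) and CD68 (log2 difference -0.50, limma adjusted p = 2.59e-07) fell. Their part in the carrier values was not tested.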

How the data were processed

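The authors deposited 1 table of TPM (transcript shares corrected for length and scaled to a fixed total) for 20263 genes in 6 libraries. Per the submitters' processing notes, the genome build was GRCh38 and the tools included HISAT2 2.0, Trimmomatic 0.36, bedtools 2.26.0 and FastQC 0.11.2. The counting program was not given in the sources used here. TPM columns share 1 total, so depth is unknown and no counting interval was computed. Genes with at least 1 TPM in at least 3 libraries were kept (12793), and log2(TPM + 1) was compared between CSE and WT with limma 3.58.1 in R 4.3.3 (empirical Bayes with trend, no covariate, Benjamini-Hochberg adjustment over all genes, threshold 0.05). Intervals of 95% come from that fit and are not adjusted. The fit was tested on simulated data. Symbols and positions came from the reference tables and GENCODE 29 on GRCh38, which need not be the authors' annotation.

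The 8 genes and the lists were chosen with earlier results of these data known. Named from each list are the called genes with a log2 difference of at least 0.3 in size and the most abundant gene. Some genes that this rule takes are not reported here. Alternatives were another pseudocount, 2 other filters, 3 other scalings, 2 other priors, a replicate block, and the removal of each library in turn.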

Additional observations from a re-analysis of the deposited data

How the results depend on the processing

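Over 15 alternatives, no member and no called pathway gene changed direction. The count of called genes, 6407, lay between 5463 and 6924. The difference of SLC16A6 minus the mean of SLC16A1, SLC16A3, SLC16A7 and BSG moved to 1.32 with a pseudocount of 0.1 and lay between 1.08 and 1.23 when 1 library was left out. The difference of SLC16A3 minus SLC16A1, added after seeing the data, was 0.61 and lay between 0.56 and 0.63. With mitochondrially encoded genes left out, 26 pathway genes were called higher and 26 lower, and with 1 library left out 32 to 42 were higher and 15 to 18 lower. Of 57 called pathway genes, 39 were called in every alternative that tested them. The labels do not say whether equal replicate numbers pair the libraries. Deviations from the group means correlated at -0.071, 0.015 and -0.088 for equal numbers, and no library correlated best with its own number. With 3 libraries per group these correlations cannot decide whether cultures were paired. With the replicate block 6537 genes were called. Unknown depth limits what can be said of genes near 1 TPM or below.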

Other observations

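The genes next to the members on the chromosome were looked up after the data had been seen. The nearest tested genes on either side of SLC16A6 were AMZ2, 9862 bases away, and WIPI1, 129681 bases away. AMZ2 was at 97.7 TPM in CSE and 90.7 TPM in WT (log2 difference 0.11, limma adjusted p = 0.0415), and WIPI1 was at 33.8 TPM in CSE and 38.2 TPM in WT (log2 difference -0.18, limma adjusted p = 0.0150). Beside SLC16A3, CCDC57 was at 33.1 TPM in CSE and 28.9 TPM in WT (0.19, limma adjusted p = 0.00331) and SECTM1 at 9.39 TPM in CSE and 9.23 TPM in WT (0.022, limma adjusted p = 0.800). Beside BSG, HCN2, 6400 bases away, was at 4.26 TPM in CSE and 5.18 TPM in WT (log2 difference -0.23, limma adjusted p = 0.0136). On its other side GZMM was at 1.22 TPM in CSE and 2.0 TPM in WT (log2 difference -0.43, limma adjusted p = 0.00247). Beside SLC16A1, TAFA3 (log2 difference -0.57, limma adjusted p = 3.26e-05) and LRIG2 (log2 difference -0.21, limma adjusted p = 0.0142) were lower in CSE. Neighbours of the remaining members are not reported here.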
